A study of Drosophila melanogaster with 2 samples.

Results

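The miRNA hairpins mir-11 and mir-308 of Drosophila melanogaster each give a product from their 5p arm and a product from their 3p arm, and these 4 products are described here out of 241 known mature miRNA names listed in 2 small RNA libraries of fly heads. They were taken by name (dme-miR-11-5p, dme-miR-11-3p, dme-miR-308-5p and dme-miR-308-3p, written below without dme) and chosen by their read counts and arm shares in these same libraries, so the level and arm values below describe the 2 libraries and are not a test. The flies were Canton-S adult females, a wild-type laboratory strain, aged 3 to 5 days, with about 180 in each sample. The control flies stood in an air stream without ethanol for 45 minutes, and the ethanol flies breathed ethanol-saturated air for 15 minutes, by when all of them were sedated, and then plain air for 30 minutes. Each group is 1 library made from pooled heads, so no difference between the groups has a replicate check. Library and treatment cannot be told apart.

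K-box miRNAs carry a 5′ end that pairs with the K box, a short motif in the untranslated ends of fly messenger RNAs such as those of Notch target genes, and they lower the output of those messengers. Bases 2 to 8 of a miRNA, the seed, do most of this pairing. The miR-2, miR-13 and miR-6 miRNAs belong to the same family, and fly members of it, miR-11 among them, have been tied to repression of the cell death genes reaper, hid, grim and sickle. When a hairpin is cut, one arm is usually loaded into the silencing complex and the other is degraded, so the reads of the arms differ. In both hairpins the K-box product is the 3p arm.

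The 3p product of mir-11 is shown with its partner arm and with 2 K-box relatives, because the shared seed and the unlike remainder set which reads can be confused. Capitals mark the seed, and the sequences are those deposited by the authors, written as RNA.
miR-11-3p: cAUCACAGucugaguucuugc
miR-11-5p: cAAGAACUuucucugugacccg
miR-2a-3p: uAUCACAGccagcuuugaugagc
miR-13a-3p: uAUCACAGccauuuugaugagu

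miR-308-3p has the same seed, AUCACAG. Beyond base 8 it matched miR-11-3p at 4 of 13 positions, and miR-11-3p matched miR-2a-3p at 6 of 13. Among 240 listed sequences the seed was held by 9 products, while the seed of miR-11-5p and that of miR-308-5p were each held by that product alone. The nearest other listed sequence was 8 edits away for miR-11-3p and miR-11-5p, 7 for miR-308-3p and 9 for miR-308-5p. No listed product and none of the 99 candidate miRNAs named by the authors lay within 3 edits of any of them. None of the 4 products begins with U, as 122 (50.8%) of the listed sequences do.

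Each hairpin has a single gene in the annotation (Ensembl release for BDGP6, used here for names and neighbours only). mir-11 (FBgn0262434) lies on chromosome arm 3R within E2f1, which encodes a transcription factor of the cell cycle, and mir-308 (FBgn0262407) lies on arm 2R within RpS23, which encodes a protein of the small ribosomal subunit. Each is on the same strand as its host. E2f1 also holds mir-998, in its last intron as well and named here after its values were seen, with ratios of 0.82 (0.81 to 0.83) for miR-998-5p and 1.0005 (0.94 to 1.07) for miR-998-3p, ethanol over control as defined below. Each sits in the last intron of every annotated host transcript, 6 of 6 for E2f1 and 2 of 2 for RpS23. Of 47 compared hairpins in introns on the strand of a protein-coding host, 13 (27.7%) had such a place, and mir-308 was the only 1 of the 47 in a gene named as a ribosomal protein. The annotated hairpins are 75 bases long for mir-11 and 63 for mir-308, against a median of 93 over 95 hairpins with both arms annotated. In both, 17 bases separate the arms, near the median of 18. The messenger RNAs of the hosts were not measured in these libraries.

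The libraries held 17337082 (control) and 17600983 (ethanol) reads, of which 13692046 and 13128478 were assigned to known mature miRNAs. Levels are CPM, counts scaled per 1e+06 of those known miRNA reads, and a ratio is ethanol over control. A product was compared if it had at least 100 reads over both libraries, which all 4 products and 168 of the 221 sequences listed in both libraries had. The threshold for calling a product higher was a ratio of 2 or more, and for lower a ratio of 0.5 or less. All intervals printed are exact 95% intervals for the counting of reads only, and they hold no variation between libraries. Reads copied by PCR are not independent molecules, so the intervals can be too narrow even for counting error. The control RNA had an integrity number of 6.80 and the ethanol RNA one of 6.40, and the part of this gap in any value below was not tested.

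The 3p product of mir-308 was nearly lost from the ethanol library, while its 5p partner kept its level. miR-308-3p had 697 control reads, or 50.9 CPM (47.2 to 54.8), and 46 ethanol reads, or 3.50 CPM (2.57 to 4.67). Its ratio was 0.069, which is 14.5-fold lower (10.8 to 20.03). The ethanol level was 6.88% of the control level, and an equal level would have given 668 reads. It went from rank 104 of 233 listed sequences in the control to rank 169 of 228 in the ethanol library. In heads, fewer cells of a type and less RNA per cell cannot be told apart.

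miR-308-5p, the other arm, had 316 control and 295 ethanol reads. Its control level was 23.1 CPM (20.6 to 25.8), and its ethanol level was 22.5 CPM (19.98 to 25.2). The ratio was 0.97 (0.83 to 1.14), so the interval holds 1, and the product stood at rank 117 and rank 118. The intervals of the libraries overlap for this arm and lie far apart for the 3p arm.

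The products of mir-11 lay on opposite sides of a ratio of 1, with the K-box arm higher. miR-11-3p had 4231 control reads, or 309 CPM (299.8 to 318), and 6089 ethanol reads, or 464 CPM (452 to 476). Its ratio was 1.50 (1.44 to 1.56), under the 2-fold threshold, and its rank went from 62 to 57. miR-11-5p, the rare arm, had 91 control reads, or 6.65 CPM (5.35 to 8.16), and 35 ethanol reads, or 2.67 CPM (1.86 to 3.71). It was 2.49-fold lower (1.67 to 3.79) and moved from rank 151 to rank 175. For each product of mir-11 the intervals of the libraries did not overlap.

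**Figure D1:**
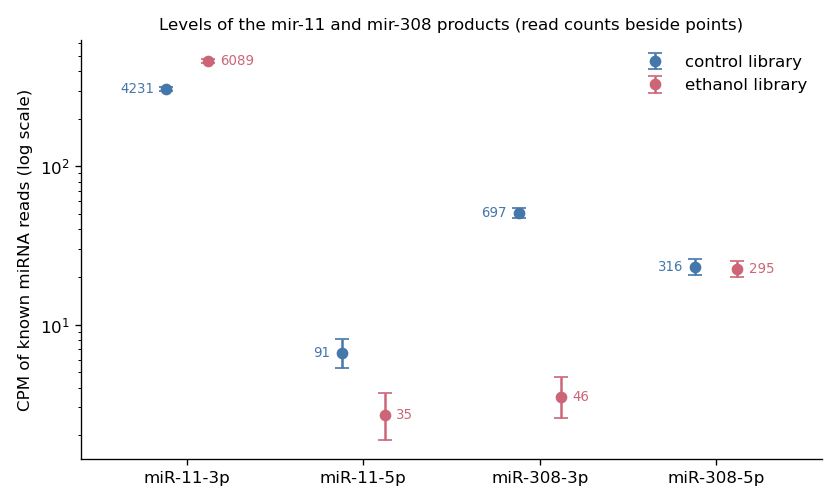
Level of each product in CPM of known miRNA reads (log axis) in the control (blue) and ethanol (red) library, with exact 95% counting intervals as bars and the read count beside each point. miR-308-3p goes from 50.9 to 3.50 CPM while miR-308-5p goes from 23.1 to 22.5 CPM, and miR-11-3p goes from 309 to 464 CPM and miR-11-5p from 6.65 to 2.67 CPM.

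Of the 168 compared products, 6 (3.57%) were at least 2-fold higher or lower, 4 (2.38%) higher and 2 (1.19%) lower. Those 2 were miR-308-3p and miR-11-5p; since the products were chosen with these ratios known, nothing is read from that count. The remaining 164 products, other than those of mir-11 and mir-308, had ratios between 0.50 and 3.13, and the lowest of them was 1.98-fold lower. The counting interval lay above 1 for 62 products (36.9%), miR-11-3p among them, and below 1 for 64 (38.1%), miR-308-3p and miR-11-5p among them. It held 1 for 42 (25%), miR-308-5p among them. A ratio whose counting interval leaves out 1 is thus the common case between these libraries.

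Depth sets how these ratios read. Of the 55 products with 100 to 999 control reads, only miR-308-3p (1.82%) had a ratio of 0.5 or less, and the 53 of them that are not products of mir-308 ranged from 0.54 to 1.91. This class is set on control reads, of which miR-308-3p had 697 against 46 ethanol reads. That product was also chosen with its ratio known, so nothing is read from its being the only 1. Of the 20 products with 100 to 199 reads over both libraries, only miR-11-5p (5%) was at 0.5 or less, and 3 (15%) passed 2-fold in either direction. The other 19 ranged from 0.65 to 3.13. The 3 past 2-fold were miR-11-5p itself, chosen with its ratio known, and miR-1008-3p (2.55) and miR-304-5p (3.13), which were higher. Over all depths, 3.57% of products passed 2-fold.

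**Figure D2:**
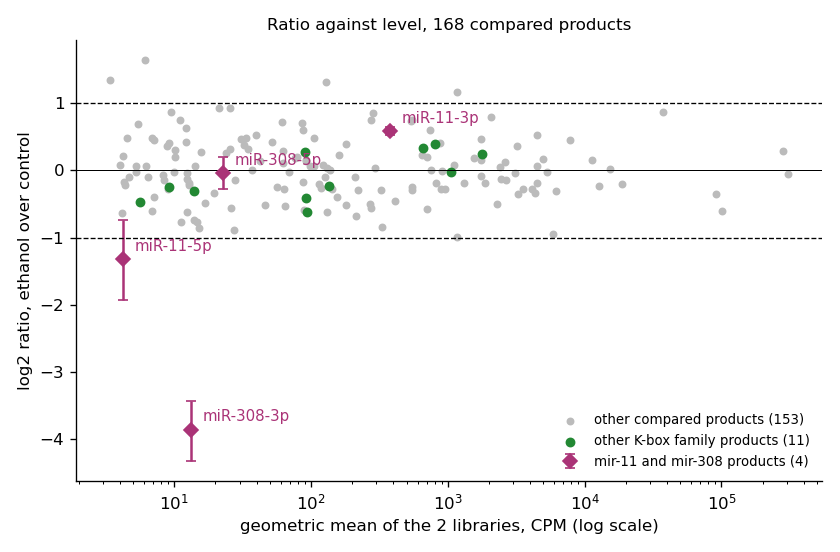
Log2 ratio, ethanol over control, against the geometric mean level in CPM (log axis) for 168 compared products, with dashed lines at 2-fold. miR-308-3p at -3.86 and miR-11-5p at -1.32 are the points under the lower line. The bars on the 4 products of mir-11 and mir-308 are 95% counting intervals. The 11 other products of K-box family hairpins (green, 5p and 3p arms) lie between -0.61 and 0.40.

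By closeness of the log2 ratio over these 2 libraries, and leaving out the products of mir-11 and mir-308 themselves, the products nearest to miR-11-3p (0.59) were miR-274-5p (0.60) and miR-9a-3p (0.61). Nearest to miR-308-5p (-0.04) were miR-967-5p and miR-279-3p (-0.03 each). For both miR-11-5p (-1.32) and miR-308-3p (-3.86) the nearest were miR-277-5p (-0.99) and miR-124-3p (-0.95). They lay 0.33 and 0.37 from miR-11-5p, whose counting interval holds both values, and 2.87 and 2.91 from miR-308-3p, whose interval holds neither.

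Summed over both arms, mir-308 was lower in the ethanol library and mir-11 was higher, short of 2-fold. mir-308 had 1013 control and 341 ethanol reads in all, 74.0 and 26.0 CPM, a 2.85-fold lower sum (2.52 to 3.23). mir-11 had 4322 and 6124 reads, 316 and 466 CPM, a ratio of 1.48 (1.42 to 1.54). Within a library, where no scaling enters, mir-11 had 4.27 times the reads of mir-308 among control reads and 18.0 times among ethanol reads. For the K-box arms alone, miR-11-3p outnumbered miR-308-3p 6.07 times in the control, against 132 times after ethanol.

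The arm share, which needs no scaling between libraries, moved towards 5p in mir-308 and towards 3p in mir-11. In mir-308 the 3p arm held 68.8% of the reads in the control (65.9 to 71.6%) and 13.5% in the ethanol library (10.05 to 17.6%), so the odds of a 3p read were 14.1-fold lower (10.01 to 20.3). The more abundant arm thus switched, from 2.21 3p reads for each 5p read to 6.41 5p reads for each 3p read. In mir-11 the 3p arm held 97.9% (97.4 to 98.3%) and 99.4% (99.2 to 99.6%), and the odds of a 3p read were 3.74-fold higher (2.50 to 5.71). For each read of miR-11-5p there were 46.5 reads of miR-11-3p in control heads and 174 in ethanol heads.

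Over 61 hairpins with both arms compared, the odds differed at least 2-fold in 11 (18%), and the interval of the odds, a normal one for hairpins above 20000 reads, left out 1 in 42 (68.9%), both hairpins among them. The 2-fold shifts went in 7 (11.5%) towards 3p as in mir-11 and in 4 (6.56%) towards 5p as in mir-308. The more abundant arm differed between libraries in 2 (3.28%). The other hairpin was mir-1016, a mirtron, with 44.8% 3p reads in the control (35.6 to 54.3%) and 56.9% in the ethanol library (47.7 to 65.8%), where both intervals hold an even split. Nearest to the arm shift of mir-11 (log2 odds ratio 1.90) were mir-1003 (2.09) and let-7 (1.33). Nearest to that of mir-308 (-3.82) were mir-1000 (-1.60) and mir-316 (-1.03).

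**Figure D3:**
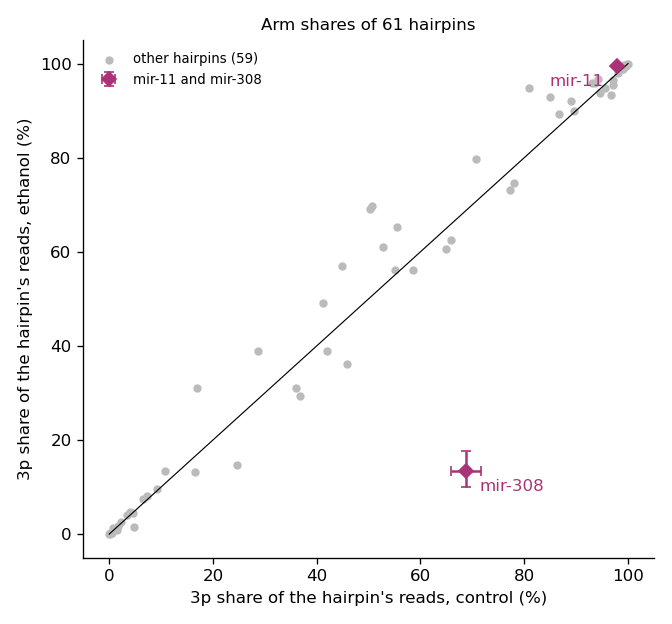
Share of each hairpin's reads that came from the 3p arm, control (x axis, %) against ethanol (y axis, %), for 61 hairpins, with the line of equal shares and exact 95% intervals on mir-11 and mir-308. mir-308 sits at 68.8% and 13.5%, far under the line, and mir-11 sits in the upper corner at 97.9% and 99.4%.

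Among products with the K-box seed, mir-11 held a larger share in the ethanol library and mir-308 a smaller one. The 9 products together had 47489 control and 55776 ethanol reads, a ratio of 1.22 (1.21 to 1.24), and without miR-11-3p and miR-308-3p the ratio was also 1.22 (1.20 to 1.23). miR-11-3p made up 8.91% of these reads in the control (8.65 to 9.17%) and 10.9% in the ethanol library (10.7 to 11.2%), behind, in both libraries, miR-2a-3p, miR-2b-3p and miR-13b-3p. miR-308-3p made up 1.47% (1.36 to 1.58%) and 0.0825% (0.0604 to 0.11%). Together they held 10.377% and 10.999%. The control reads of miR-308-3p lay far above those of miR-6-3p, an embryonic K-box miRNA with 10 reads there, while the ethanol library held 46 reads against 37.

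These shares keep the largest count where a name is listed more than once. miR-2a-3p, miR-2b-3p, miR-13b-3p and miR-6-3p come from several hairpins and are listed once for each, while miR-11-3p and miR-308-3p are listed once. With repeated counts summed, the share of miR-11-3p and miR-308-3p together was 5.73% and 6.05%. Summing counts a read more than once if the repeated entries share it, which was not tested.

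**Figure D4:**
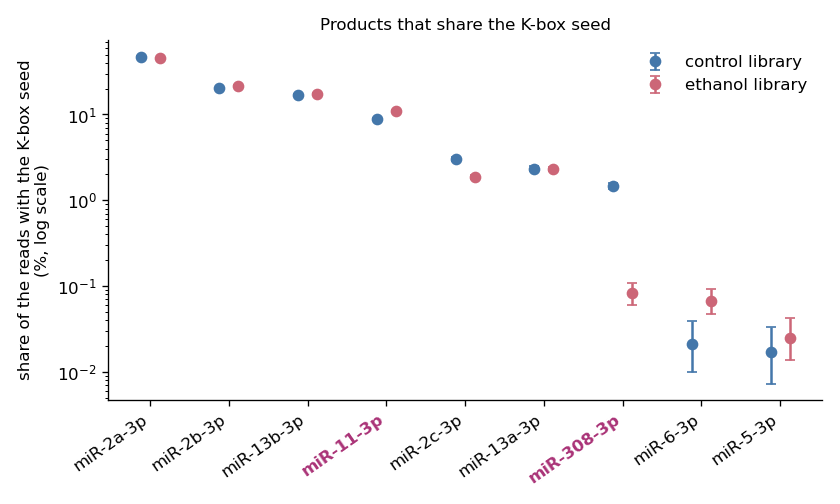
Share of the reads with the K-box seed that each of 9 products held (log axis, %) in the control (blue) and ethanol (red) library, with exact 95% intervals. miR-308-3p drops from 1.47% to 0.0825% while miR-11-3p goes from 8.91% to 10.9%.

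The other products of K-box family hairpins split by arm. Both arms are counted here by name, and the 5p products do not carry the K-box seed. Of 11 compared, 4 lay above a ratio of 1 and 7 below, and none reached 2-fold. Their median log2 ratio was -0.23, against -0.02 over all 168. Of their 5 3p products, 4 lay above 1, with log2 ratios from -0.41 to 0.40 and a median of 0.28. All 6 of their 5p products lay below 1, from -0.61 to -0.03, with a median of -0.28. The products of mir-11 fell on the same sides as most of these, and miR-308-3p did not. Of the 5 3p products, miR-2c-3p also lay below 1 (ratio 0.75, 0.70 to 0.82). Over all compared products, 52 of 85 3p products lay above 1 and 53 of 83 5p products below. miR-2a-3p, the K-box product with the most reads, had 22380 and 25479 reads (ratio 1.19, 1.17 to 1.21). miR-2b-2-5p, a 5p product without the seed, was the one of the 11 farthest from 1. It had 1594 and 999 reads and was 1.53-fold lower (1.41 to 1.66).

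miRNAs tied to cell death genes in the fly (bantam, miR-14, miR-263a, miR-263b, miR-278 and the K-box family) had ratios on both sides of 1. Both arms of each hairpin are counted, whether or not that arm was the one tied to those genes. Without mir-11 and mir-308, 6 of 20 compared products lay above 1 and 14 below, none past 2-fold. Their median log2 ratio was -0.26, against 82 above, 86 below and a median of -0.02 over all 168. By arm, 9 of the 11 5p products and 5 of the 9 3p products lay below 1. Of the 20, 11 are the products of K-box family hairpins counted above. bantam-3p, which holds down the death gene hid, had 37159 and 25225 reads (ratio 0.71, 0.70 to 0.72). The product with the most reads in the list was miR-263a-5p, a guard of sense organ precursors against death, at a ratio of 1.37 (1.36 to 1.39).

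Products of intronic hairpins, the class to which both hairpins belong, lay equally often on each side of a ratio of 1. Of 72 compared products of the 47 intronic hairpins, 36 lay above 1 and 36 below. At least 2-fold higher were 3 of them, against 4 (2.38%) of all 168 compared products. The 2 that were at least 2-fold lower were miR-308-3p and miR-11-5p, chosen with their ratios known. None of the 68 intronic products outside mir-11 and mir-308 was at least 2-fold lower. Of the 86 products of hairpins outside such introns, 1 was higher and none lower, and 10 products had no matched hairpin. Without mir-11 and mir-308 the median log2 ratio of this class was 0.03, against -0.02 for the 86 outside.

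Among sequence features, miR-308-3p had a stable predicted fold on itself. The lowest energy predicted for a fold of the mature sequence alone was -7.7 kcal/mol, with 6 base pairs, the third lowest of 240 listed sequences, whose median was -0.75. It was 0 for miR-11-3p, -0.2 for miR-11-5p and -2.2 for miR-308-5p. The 2 with lower energies were miR-4952-5p (-8.7), with 199 control and 112 ethanol reads, and miR-313-5p (-8), with 31 and 13. Of the 10 other compared products at -5 kcal/mol or under, a limit chosen after the values were seen, 2 lay above a ratio of 1 and 8 below, against 80 and 77 of the 157 products above that limit. None of the 10 reached 2-fold, and their log2 ratios ran from -0.77 to 0.42. The part of self-folding in the ratio of miR-308-3p was not tested.

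**Figure D5:**
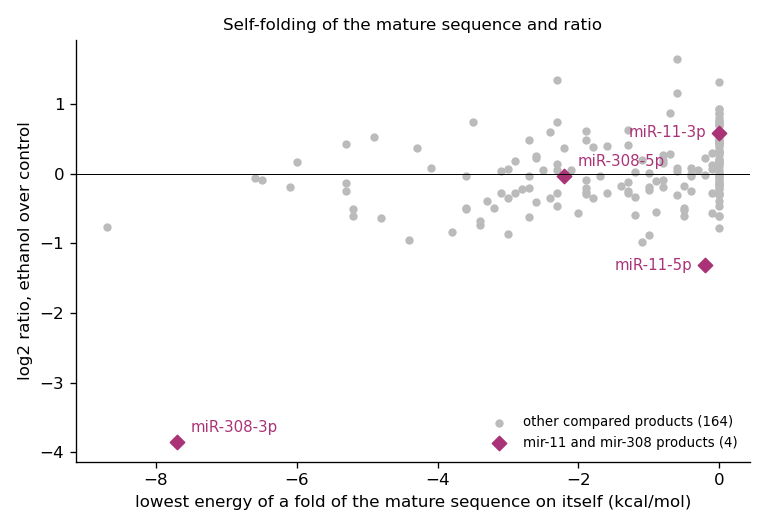
Log2 ratio, ethanol over control, against the lowest energy of a fold of each mature sequence on itself (kcal/mol, further left is more stable) for 168 compared products. miR-308-3p lies at -7.7 kcal/mol and a log2 ratio of -3.86, and the other products at -5 kcal/mol or under lie between -0.77 and 0.42.

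The pairing of the arms and the guanine content of both hairpins lay near the middle of the other hairpins or in their lower part. The duplex of the 5p and 3p products had an energy of -19.8 kcal/mol with 15 pairs for mir-11 and -19.3 with 16 pairs for mir-308, against medians of -19.9 and 16 over 61 hairpins. Guanine made up 22.7% of both products of mir-308, 19.0% of miR-11-3p and 18.2% of miR-11-5p, against a median of 22.9% over the compared products. Ratios were lower at higher guanine content across these libraries, with a slope of -0.024 log2 per percentage point in a linear fit, and after a linear correction for it the log2 ratio of miR-308-3p was -3.90 and that of miR-11-5p was -1.47. The arms of mir-308 hold the same percent of guanine, so its arm shift was the same after the correction.

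In the authors' deposited table, which rests on RPM, reads scaled to the library total, 14 of 196 known products (7.14%) are marked as different. miR-308-3p is marked, with a log2 ratio of -3.94 and p = 8.93e-153 in the authors' deposited table, and it has the lowest ratio there. miR-11-5p is marked, with -1.40 and p = 2.8e-07 in the authors' deposited table. miR-11-3p is unmarked at 0.50 (p = 3.94e-69), and miR-308-5p is unmarked at -0.12 (p = 0.300), both in the authors' deposited table. These p-values compare the libraries, not the treatments, and no source used here names the test behind them.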

How the data were processed

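The deposited files give, for each of 2 libraries, the read count of each mature miRNA, listed from 5 reads up, and the authors' RPM over a library total. No source used here names the trimming, aligner or counting tool. Per the submitters' processing notes, the genome build was BDGP5. The authors' deposited comparison holds log2 ratios and p-values. For names listed more than once the largest count was kept, and miR-276b-5p was dropped as the same sequence as miR-276a-5p. Ratios of CPM carry exact conditional binomial (Clopper-Pearson) 95% intervals. Arm odds carry exact conditional intervals, or normal ones above 20000 reads in a hairpin. The level ratios, the 2-fold call and the arm odds were tried on counts simulated with counting error only. That trial holds no variation between libraries and does not cover the other steps. With 1 library per group no test was made. Self-folds and arm duplexes used ViennaRNA 2.7.2 at 37 °C. Hairpin sequences were not used here, so the planned hairpin energy was replaced by that of the arm duplex. The guanine correction was a line fitted over the compared products outside mir-11 and mir-308. Named products were all 4, the most abundant and most changed of each list, the nearest 2 in ratio or arm shift, and hairpins whose main arm switched; others were chosen after their values were seen. The members and lists were chosen with earlier results of these data known. Scaling factors came from edgeR 4.0.16 (TMM) and DESeq2 1.42.0 in R 4.3.3; the remaining work used SciPy 1.17.1, numpy 2.4.6 and pandas 2.3.3 under Python 3.11.15.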

Additional observations from a re-analysis of the deposited data

How the results depend on the processing

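Of the compared products miR-308-3p had the lowest ratio, and miR-11-5p was at least 2-fold lower, under each of 4 other scalings. Under these the log2 ratios ran from -3.98 to -3.87 for miR-308-3p and from -1.44 to -1.33 for miR-11-5p. miR-11-3p, 0.59 in CPM, was 0.50 over the library totals, 0.46 with the 4 most abundant products left out of the total and 0.46 after the guanine correction, and the sum of mir-11, 0.56, was 0.48 and 0.44 under the first 2 of these. The number of products at least 2-fold lower, 2 in CPM, was 4 over the library totals, 5 without the 4 most abundant products, 5 with a minimum of 10 reads or none, and 0 with a minimum of 1000, which leaves out both miR-308-3p and miR-11-5p. The number at least 2-fold higher, 4, was 7, 7 and 2 at these minimums. The share of miR-11-3p and miR-308-3p among K-box reads was 5.73% (control) and 6.05% (ethanol) with repeated counts summed, since only their relatives are listed more than once. The other 35 recomputed values stayed within their counting interval or, for counts, within 1.5 times. No paired analysis was possible because each group has 1 library. Depth limits miR-11-5p most, with 35 ethanol reads.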
